A study of Mus musculus with 12 samples.

Results

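The introns described here are 6808 introns of 1000 nt or more that were largely removed in control cells. They were chosen by measured values in the deposited percent-retention table, on 4 conditions: a length of at least 1000 nt, a value in all 12 libraries, a mean over the 12 libraries between 2% and 98%, and a mean under 20% in the 4 control libraries. They make up 39.8% of the 17096 introns of any length that met the conditions on the 12 values and their mean, whatever the control mean. They are also part of the 28980 splicing events of all kinds that met these conditions. Rows for the first listed site of an alternative 5′ or 3′ splice site event (37194 before these conditions) were left out of the 28980. The table lists 92878 introns of 1000 nt or more. Of these, 57140 lacked a value in at least 1 library, 28643 had a mean under 2%, 2 had a mean over 98%, and 285 had a control mean of 20% or more. The mean over 12 libraries therefore kept introns with some retention and left out most long introns that were spliced almost completely. The Cc2d1b and Lpcat4 introns of 1000 nt lay just inside the length limit, and those of Polr1a and Zfc3h1, of 999 nt, just outside it. At the control limit, Nde1 (19.9%) and Trit1 (19.98%) were inside, and Spag9 (20.03%) and Ppie (20.04%) outside. At the lower limit of the mean, Txnrd3 (2.000%) and Chfr (2.001%) were inside, and Timeless (1.998%) and Cdc27 (1.999%) outside.

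The libraries were polyA RNA from N2a Flp-In rtTA cells, a mouse neuroblastoma line that carries a doxycycline-inducible cDNA for FLAG-tagged Sap30bp. One line held the cDNA without exon 3 of Sap30bp (mEx3, minus exon 3) and the other the cDNA with exon 3 (pEx3, plus exon 3). Each line was given a non-targeting siRNA pool (control), an siRNA against Sap30bp (knockdown), or the same siRNA with doxycycline, which induces an siRNA-resistant cDNA (rescue). That makes 6 groups of 2 biological replicates, each pooled from several wells, with doxycycline or plain medium added 24 h after transfection and harvest at 72 h. All groups carry an integrated cDNA and their own Sap30bp gene. Control siRNA with doxycycline was not among the groups, so doxycycline and the induced protein cannot be told apart, nor can the isoform and the cell line that carries it. The labels call the replicates biological without saying what separated them, so the p-values measure the spread between these samples, which may be partly technical. They do not say whether a line was 1 clone.

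An intron is removed after the spliceosome has recognised a 5′ splice site, a branch point, a run of pyrimidines and the AG at the 3′ splice site. In vertebrates the ends of long introns are mostly paired across the short exon between them, whereas very short introns can be paired across the intron itself. U2AF binds the pyrimidine run and AG of most introns. SAP30BP is known as a partner of RBM17 (SPF45), a protein that takes the place of U2AF2 on a group of short introns with a weak pyrimidine run. Intron retention is measured as the percent of transcripts that still hold the intron, and differences below are in percentage points.

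The 3′ ends of some introns named below are shown first, picked among those whose 3′ end could be read. No 3′ end was read for the introns of Dock4, Fam113a, Ptdss2 and Fgfr1op, which were also among those highest in knockdown. Sequences were read from GENCODE M21 transcripts (GRCm38) in which an annotated exon runs across the splice site. The files' own mm9 coordinates were not used to read them: introns were matched by chromosome, strand and the lengths of the intron and both flanking exons, which identified 5973 of the 6808. Each 3′ end holds the last 50 bases of the intron, 5′ to 3′, with the 20 bases before the final 3 in capitals, over which C and T were counted. They are shown because the first 4 introns had means 14.1 to 31.4 points higher in knockdown than in control, Ankrd16 and Rltpr lay lower in every rescue library than in any knockdown library, and Cit had a lower mean in knockdown than in control.

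Dvl1, 1172 nt, 3′ end at chr4:155857943-155857992, plus strand: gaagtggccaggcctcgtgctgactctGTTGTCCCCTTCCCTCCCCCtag
Ltbp3, 2877 nt, 3′ end at chr19:5745390-5745439, plus strand: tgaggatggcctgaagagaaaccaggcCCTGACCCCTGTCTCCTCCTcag
Plekha6, 4211 nt, 3′ end at chr1:133298870-133298919, plus strand: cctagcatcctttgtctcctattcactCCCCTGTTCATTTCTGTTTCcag
Acp6, 3068 nt, 3′ end at chr3:97171592-97171641, plus strand: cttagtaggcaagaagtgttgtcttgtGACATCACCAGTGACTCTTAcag
Ankrd16, 1771 nt, 3′ end at chr2:11786174-11786223, plus strand: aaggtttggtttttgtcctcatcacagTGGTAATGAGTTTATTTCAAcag
Rltpr, 1086 nt, 3′ end at chr8:105696811-105696860, plus strand: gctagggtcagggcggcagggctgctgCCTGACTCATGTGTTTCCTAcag
Cit, 1092 nt, 3′ end at chr5:115988106-115988155, plus strand: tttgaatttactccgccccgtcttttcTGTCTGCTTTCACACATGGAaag

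In the capital window Dvl1 held 18 pyrimidines of 20, Ltbp3 and Plekha6 17, Rltpr 14, Cit 12, Acp6 11 and Ankrd16 10. These introns thus span long and short pyrimidine runs. Over the 1090 matched members whose 3′ end could be read, the median share of pyrimidines was 70% (quartiles 65% and 80%). The same window gave 70% over 584 tested introns under 100 nt and 75% over 650 tested introns of 100 to under 200 nt. An AG ended 1088 of the 1090 members, and a GT began 1390 of the 1407 whose 5′ end could be read. The 9 readable members at least 10 points higher in knockdown than in control had a median of 80%. Only introns that some annotated transcript retains or starts or ends within could be read, so these are not a random draw of the members.

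A second set shows 3 exons that have a long member on one side and, on the other, a short intron that rose on knockdown.

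1700019N12Rik, short intron of 155 nt, 3′ end at chr19:6923368-6923417, minus strand: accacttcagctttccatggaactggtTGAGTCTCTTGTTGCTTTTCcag
1700019N12Rik, long intron of 1194 nt, 3′ end at chr19:6923600-6923649, minus strand: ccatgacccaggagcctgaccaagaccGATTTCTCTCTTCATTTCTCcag
Fbxw9, short intron of 84 nt, 3′ end at chr8:85064531-85064580, plus strand: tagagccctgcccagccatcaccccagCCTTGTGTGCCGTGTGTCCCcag
Fbxw9, long intron of 1148 nt, 3′ end at chr8:85065771-85065820, plus strand: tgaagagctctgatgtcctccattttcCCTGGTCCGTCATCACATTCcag
Stx4a, short intron of 71 nt, 3′ end at chr7:127846150-127846199, plus strand: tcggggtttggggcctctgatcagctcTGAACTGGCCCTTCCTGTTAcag
Stx4a, long intron of 2377 nt, 3′ end at chr7:127845970-127846019, plus strand: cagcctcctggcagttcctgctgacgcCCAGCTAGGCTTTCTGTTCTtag

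The short and long windows held 15 and 17 pyrimidines in 1700019N12Rik, 14 and 14 in Fbxw9, and 13 and 14 in Stx4a. The 2 introns of a pair thus differed by at most 2 bases in this count.

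The 6808 introns lay in 4138 genes. One member each came from 2423 genes, and the most from 1 gene was 7, in Heatr6. The median length was 2262.5 nt, with quartiles of 1506 and 3519.25 nt, and 222 members reached 10000 nt. Introns of 1 gene come from the same transcripts and are not independent of each other.

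The labels were checked on Sap30bp and on marker genes before the introns were compared. In the authors' deposited table Sap30bp stood at 40.03 RPKM in control, 21.7 in knockdown and 196 in rescue of the mEx3 line, and at 33.6, 18.6 and 141 in the pEx3 line. For knockdown against control the authors' deposited table gives Sap30bp a log2 fold change of -0.63 (FDR 0.067) in mEx3 and -0.60 (FDR 0.068) in pEx3, neither under 0.05. Inclusion of its 48 nt exon 3 was 90.88% and 89.98% in the control libraries of the mEx3 line, 74.3% and 67.9% in its knockdown libraries and 11.7% and 5.87% in its rescue libraries. The mEx3 knockdown libraries, which had no doxycycline, thus lay below their controls. In pEx3 cells it was between 94.0% and 99.2% in all 6 libraries. The neuroblastoma genes Hand2 (means of 82.6 to 174 RPKM over the 6 groups), Chgb and Elavl4 were expressed. Of 18 markers of fibroblasts, glia and immune cells, 9 were under 0.1 RPKM, with Col3a1 listed at 0 in every group, and their summed level lay between 10.3 and 15.7 RPKM in each group.

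Retention of the members was low in every library. The median over members was 3.33% and 4.35% in the control replicates 1 and 2 of the mEx3 line, 3.41% and 4.76% in its knockdown and 2.22% and 3.85% in its rescue replicates. In the pEx3 line it was 3.03% and 4.23% in control, 3.15% and 4.82% in knockdown, and 3.82% and 4.30% in rescue. Replicate 1 had the lower median in all 6 groups, and between 55.7% and 75.3% of members were lower in replicate 1. Rescue replicate 1 of the mEx3 line stood apart, with the lowest median and 12.5% of members listed at 0, against 1.66% to 8.74% in the other 11 libraries. Of the 6808 members, 4415 (64.9%) stayed under 10% in all 12 libraries and 6309 (92.7%) under 20%. For 4522 members (66.4%) the 6 group means lay within 5 points of each other. Only 4 members reached 50% in any library, and the highest single value was 73.9% in Ltbp3.

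**Figure D1:**
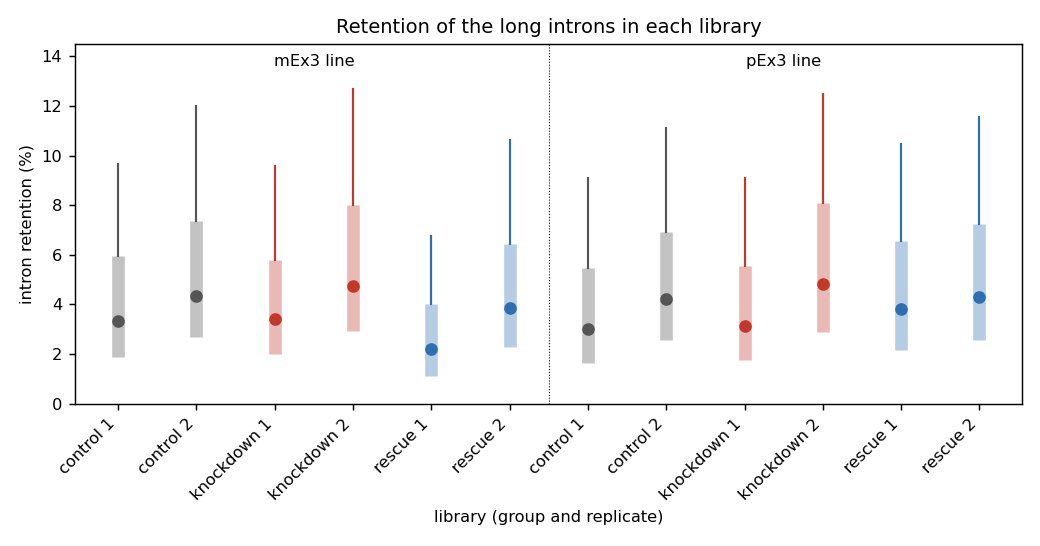
Retention (%) of the 6808 long introns in each of the 12 libraries. Points are medians, bars span the quartiles and thin lines reach the 90th percentile. All medians lie between 2.22% and 4.82%, and replicate 1 has the lower median in each group.

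The first comparison asked how retention of these introns stood after Sap30bp knockdown. The control mean chose the members, so differences from control are a description, and nothing is read from the counts of calls given beside the background. Knockdown minus control, averaged over both lines, had a median of 0.32 points over the members (quartiles -0.89 and 1.57) and 0.39 over all 28980 events. It was above 0 for 57.4% of members. In the separate lines, the median was 0.22 points (mEx3) and 0.40 points (pEx3). Each changed sign with single libraries: without control replicate 1 it was -0.18 and -0.14 points, without knockdown replicate 2 -0.56 and -0.56, without control replicate 2 0.84 and 1.11, and without knockdown replicate 1 0.77 and 1.06. A difference of at least 15 points with an adjusted p under 0.05 from limma across all events was the threshold used throughout. In the fit to all events 5 members lay past it on the higher side and 0 on the lower, against a background of 1% of all events higher and 0.483% lower. In the mEx3 line 0 members lay past it, against 0.0173% of all events higher and 0.00345% lower. In the pEx3 line 1 was higher (Dvl1) and 0 lower, against 0.197% and 0.141% of all events. All 4 knockdown libraries lay above all 4 controls for 230 members (3.38%, against 7.93% of all events) and below them for 156 (2.29%, against 4.58%). The count of 5 rested on single libraries: it was 1 without control replicate 1 of the mEx3 line and 2 without that of the other line, 11 and 12 without knockdown replicate 1 and 2 and 2 without knockdown replicate 2 of the same lines. The median of both lines was -0.04 and -0.13 points without knockdown replicate 2 of mEx3 and pEx3, 0.11 and 0.04 without control replicate 1, 0.60 and 0.63 without control replicate 2, and 0.59 and 0.68 without knockdown replicate 1.

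Intron length classes under the same control limit differed in size. The median knockdown minus control difference was 3.40 points over 1871 introns under 100 nt, 1.82 over 1944 of 100 to under 200 nt, 0.58 over 5409 of 200 to under 1000 nt and 0.32 over the members. The share with all 4 knockdown libraries above all 4 controls went from 37.9% through 17.5% and 7.25% to 3.38%. Within the members length made little difference: the median was 0.27 points at 1000 to under 2000 nt, 0.35 at 2000 to under 5000 nt, 0.42 at 5000 to under 10000 nt and 0.35 at 10000 nt or more. These classes were not set against each other in a test. The mean over the 12 libraries, which admits an intron to any class, holds its knockdown values. An intron low in control could thus enter by rising on knockdown, and how often this happened in each class was not counted.

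**Figure D2:**
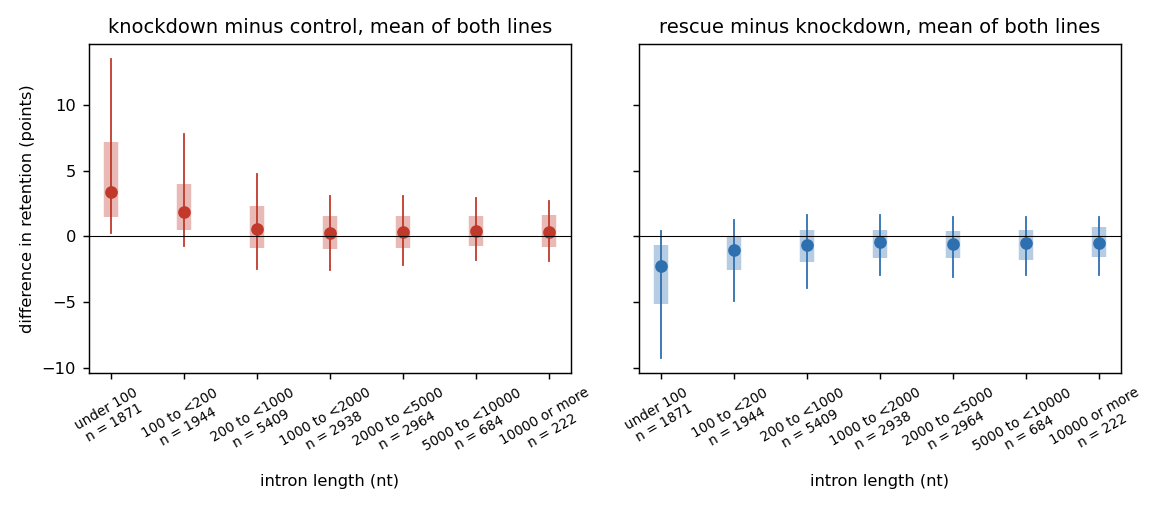
Differences in retention (points) by intron length (nt), for introns with a control mean under 20%, averaged over both lines. Points are medians, bars the quartiles and thin lines the 10th to 90th percentile, and the number of introns stands under each class. The medians go from 3.40 points under 100 nt to between 0.27 and 0.42 points in the 4 classes of 1000 nt or more, and on rescue they go from -2.27 to between -0.44 and -0.58 points.

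The 12 members with the largest knockdown minus control difference were in Ltbp3, Dock4, Dvl1, Fam113a, Plekha6, Ndor1, Ptdss2, Ogdhl, Fgfr1op, Ndst2, Prmt10 and 0610009O20Rik. Of these, Dock4, Dvl1, Fam113a, Ptdss2 and Fgfr1op were the 5 past the threshold. The control mean chose the members, so this only labels them and nothing is read from it. Dvl1 encodes Dishevelled 1, which carries Wnt signals from the receptor into the cell. Its intron of 1172 nt (mm9 chr4:155230930-155232101, plus strand), the last of the matched coding transcripts, lies before an exon of 1311 nt. In the mEx3 line it was retained at 3.35% and 4.76% in control, 20.9% and 28.2% in knockdown, and 6.07% and 6.92% in rescue. For pEx3 the values were 2.86% and 7.88%, 26.2% and 32.2%, and 15.7% and 16.5%. No control or rescue library reached the lowest knockdown library in either line.

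Ltbp3, which encodes a protein that binds latent TGF-beta in the matrix, had the largest difference, 31.4 points, and the widest spread. Its intron of 2877 nt (mm9 chr19:5742563-5745439) gave 7.18% and 21.5% in control, 11.0% and 51.1% in knockdown, and 4% and 28% in rescue of the mEx3 line. The pEx3 libraries gave 3.16% and 17.2%, 38.8% and 73.9%, and 36.1% and 43.8%. In the mEx3 line the control and knockdown ranges overlapped, and in each of the 6 groups replicate 2 was the higher. Dock4 encodes an activator of the small GTPase Rac. Its intron of 2911 nt (mm9 chr12:41567886-41570796), which lies before an exon of 2279 nt, gave 11.9% and 16.1%, 19.4% and 41.0%, and 25.4% and 31.4% in the 3 groups of the mEx3 line. The pEx3 line gave 20.8% and 19.7%, 42.9% and 60.6%, and 42.9% and 36.4%. Rescue libraries of Dock4 thus lay among or just below the knockdown libraries, and all 4 stood above the controls.

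Fam113a had an intron of 1999 nt (mm9 chr2:130245627-130247625) at 11.7% and 22.7% in control, 29.5% and 38.7% in knockdown, and 24% and 24.7% in rescue of the mEx3 line. The other line gave 9.43% and 19.2%, 34.8% and 44.4%, and 24.1% and 14.8%. Ptdss2, a phosphatidylserine synthase, had an intron of 1259 nt at 7.55% and 8.45%, 24.8% and 19.4%, and 11.3% and 20% in the mEx3 line. In pEx3 cells it was at 8.33% and 10.1%, 31.2% and 22.7%, and 19.2% and 17.95%. Both introns kept all knockdown libraries above all controls, while 1 rescue library of Ptdss2 reached the knockdown range. Fgfr1op encodes a centrosomal protein. Its intron of 4816 nt gave 5.48% and 7.36%, 16.0% and 24.6%, and 1.66% and 9.64% in the mEx3 line, and 1.33% and 7.02%, 14.7% and 26.8%, and 12.8% and 14.0% in the pEx3 line.

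Beside Ltbp3, the other 6 of the 12 that were not past the threshold had differences from 14.3 points (0610009O20Rik, 2691 nt) to 20.6 points (Plekha6, 4211 nt). Ndor1, a flavin reductase of cytosolic iron-sulfur protein assembly, was 17.96 points higher, and Ogdhl, a relative of the 2-oxoglutarate dehydrogenase E1 subunit, 15.4 points. Ndst2, an enzyme of heparan sulfate sulfation, was 14.6 points higher. The Ndst2 libraries overlapped: 11.5% and 40% in the knockdown libraries of the mEx3 line against control values of up to 14.3%. Prmt10, an arginine methyltransferase gene, went from 0% to 5.33% in its controls to 13.7% to 24.1% in knockdown, with no overlap.

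**Figure D3:**
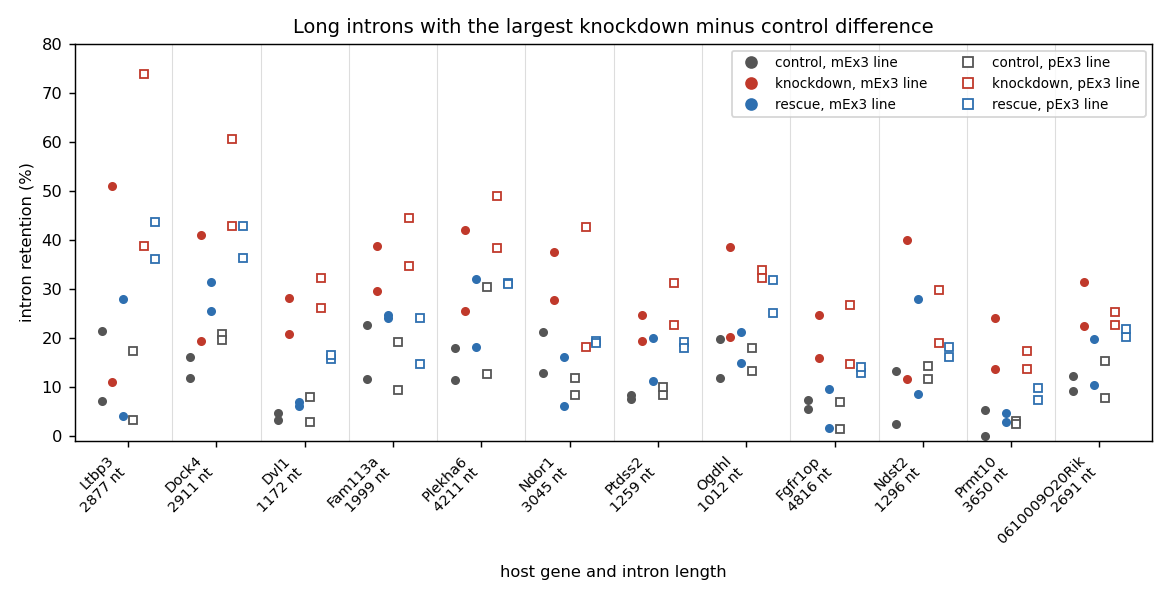
Retention (%) in all 12 libraries for the 12 long introns with the largest knockdown minus control difference. Filled circles are the mEx3 and open squares the pEx3 line, with control in grey, knockdown in red and rescue in blue, 2 libraries per group. Dvl1 has knockdown libraries from 20.9% to 32.2% and controls from 2.86% to 7.88%, while Ltbp3 spans 11.0% to 73.9% in knockdown.

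The largest differences in the other direction were smaller. Members were chosen with a control mean under 20%, so no fall in the mean of both lines could reach 20 points. Rises had more room, so the sizes of rises and falls cannot be compared. Dip2a (1109 nt) lay at 13.4% and 16.1% in control, 2.70% and 0% in knockdown, and 3.23% and 0% in rescue of the mEx3 line. The pEx3 line gave 14.8% and 17.7%, 2.56% and 0%, and 1.30% and 2.44%. All 4 controls stood above the other 8 libraries, and rescue differed from knockdown by 0.43 points (SE 1.55). Aim2, which encodes a sensor of cytosolic DNA, Gdap2, the liprin gene Ppfia3, the vesicle tethering gene Vps8 and the citron kinase gene Cit were 11.6 to 13.2 points lower in knockdown. Their rescue minus knockdown differences ran from -1.03 to 4.29 points. In Dip2a, Aim2 and Vps8 all knockdown libraries lay below all controls, whereas in Gdap2, Ppfia3 and Cit they overlapped.

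The next comparison asked how these introns stood when an siRNA-resistant Sap30bp was induced. It holds no control library and was tested. Knockdown and rescue values did enter the choice of members through the mean over the 12 libraries, which weighs both alike. An intron low in the other groups could pass that mean through its knockdown or its rescue libraries alone. No member was called in either direction for rescue against knockdown as the mean of both lines (limma, Benjamini-Hochberg adjustment over 28980 events). The background was 0.00345% of all events higher and 0.0069% lower. At an unadjusted p under 0.05 there were 95 members higher and 375 lower, or 1.40% and 5.51%, against 2.64% and 7.37% of all events. The median difference was -0.51 points over members and -0.45 over all events, with a median standard error of 1.42 points. Single libraries moved these values. Without rescue replicate 1 of mEx3, 158 members were higher and 168 lower, and the median was -0.14 points. The median was -0.14 and -0.07 points without knockdown replicate 2 of mEx3 and pEx3, -0.83 and -0.90 without knockdown replicate 1, and -0.93 without rescue replicate 2 of mEx3. All 4 rescue libraries lay below all 4 knockdown libraries for 153 members (2.25%, against 3.31% of all events) and above them for 30 (0.441%, against 1.18%). For introns under 100 nt with the same control limit, the median was -2.27 points, and 32.2% were lower at an unadjusted p under 0.05.

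The Dvl1 intron came nearest to the threshold. Rescue lay 15.56 points below knockdown (SE 2.59, adjusted p = 0.0769 by limma), lower in 4 of 4 rescue libraries than in any knockdown library. The difference was -18.04 points in the mEx3 and -13.09 points in the pEx3 line. Over 19 alternative settings the difference ran from -17.38 to -13.74 points and the adjusted p from 0.0353 to 0.330. It passed under 3 of them, including the one that leaves out knockdown replicate 1 of the mEx3 line.

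The other 14 introns had the next largest mean differences among members whose rescue and knockdown libraries did not overlap. These differences ran from -14.95 to -8.21 points, with adjusted p from 0.118 to 0.467 by limma. The libraries themselves could lie close: in Ankrd16 the lowest knockdown library was at 17.02% and the highest rescue library at 16.67%. Arv1, a gene of sterol transport in the endoplasmic reticulum, had knockdown libraries from 22.1% to 28.7%, rescue libraries from 11.5% to 14.6% and controls from 10.8% to 16.8%. Its rescue libraries thus lay within the range of the controls. Prmt10 had rescue libraries of 2.94% and 4.76% in the mEx3 line and 9.80% and 7.32% in the other, all below the lowest knockdown value of 13.7%. Csnk1g2, a casein kinase 1 gene, had an intron of 11263 nt listed at 0% in both controls of the mEx3 line and at 1.49% and 3.85% in the other controls. Its knockdown libraries gave 6.17%, 17.7%, 4.55% and 22.6% and its rescue libraries 2.86%, 0%, 2.70% and 0%. With a control mean of 1.335% and rescue means of 1.43% and 1.35%, this intron passed the 2% mean only through knockdown.

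In 2 of the 14 every rescue library lay below every control as well. Tyw3, which acts in wybutosine synthesis on tRNA, had an intron of 7185 nt with controls of 7.14% to 11.1%, knockdown libraries of 8.33% to 17.9% and rescue libraries of 1.54% to 6.45%. In Cox18, needed to assemble mitochondrial cytochrome oxidase, rescue gave 7.69% to 11.1%, controls 11.9% to 25.2% and knockdown 13.0% to 23.1%. Knockdown and control overlapped in both genes. In the zinc finger gene Zfp655 and in Rltpr the lowest rescue libraries (7.14% and 7.98%) lay below the lowest controls (11.4% and 12.1%), while the highest rescue libraries were within the range of the controls. Ankrd16, the ciliary genes Bbs4 and B9d2, Acp6, Fam113a, Fgfr1op and the co-chaperone gene Sgta complete the group.

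**Figure D4:**
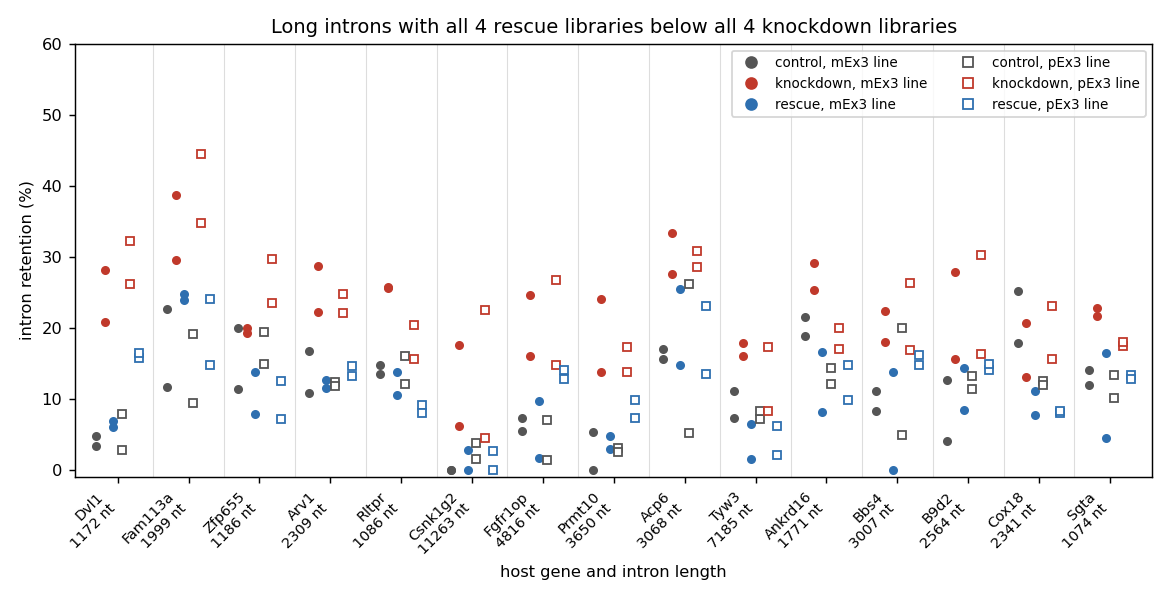
Retention (%) in all 12 libraries for the 15 long introns with the largest difference among those whose 4 rescue libraries all lie below all 4 knockdown libraries. Symbols are as in the plot of the knockdown leaders. The introns were picked for this lack of overlap and for their difference of means, which runs from -15.56 points in Dvl1 to -8.21 points in Sgta.

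In the other direction the 8 leading introns had rescue 4.04 to 5.39 points above knockdown, all at an adjusted p of at least 0.0892 by limma. Tarsl2, a threonyl-tRNA synthetase gene, was listed at 0% in all 4 knockdown libraries. Its intron of 2275 nt (mm9 chr7:72829049-72831323) gave 4.65% and 4.76% in control and 3.03% and 2.78% in rescue of the mEx3 line, and 6.90% and 5.60%, and 6.98% and 6.12%, in the pEx3 line. Rescue minus knockdown was 4.73 points (SE 0.86, adjusted p = 0.0892). Auts2, Frmd8, the ribosomal RNA methyltransferase gene Zcchc4, Plekha6 (a second intron, of 1375 nt), Pafah2, the transcription factor gene Ebf3 and Fam53a complete this group. Frmd8 and Zcchc4 passed the 2% mean over the 12 libraries only through rescue. Their control means were 1.59% and 0.925%, and their knockdown group means at most 0.945% and 0.91%. In Plekha6 the 2 introns stood in opposite order: knockdown minus control was 20.6 points in the one of 4211 nt and -9.14 points in the one of 1375 nt.

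Each line was then tested on its own. For mEx3, 0 members were called (background 0% higher and 0.00345% lower), with a median of -1.12 points. At an unadjusted p under 0.05 there were 45 higher and 414 lower, against 1.71% and 6.86% of all events, which are 0.661% and 6.08% of the members. Without rescue replicate 1 of mEx3, which stood apart, there were 149 higher and 130 lower, with a median of -0.40 points. The median was -0.27 without knockdown replicate 2, -1.70 without knockdown replicate 1 and -2.01 without rescue replicate 2 of that line. Both rescue libraries lay below both knockdown libraries for 1974 members (29.0%, against 26.8% of all events) and above them for 428 (6.29%, against 10.9%). For pEx3, 0 were called (background 0%), and the median of 0.07 points was -0.65 without knockdown replicate 1, 0.99 without knockdown replicate 2, 0.15 without rescue replicate 1 and -0.32 without rescue replicate 2 of that line. At an unadjusted p under 0.05 there were 203 higher and 160 lower (2.98% and 2.35%, against 3.22% and 3.62%), and 118 and 495 without knockdown replicate 1. Both rescue libraries lay below both knockdown libraries for 900 members (13.2%, against 16.5%) and above them for 1000 (14.7%, against 15.5%). The difference of rescue between the lines, an interaction term, had 0 members called (background 0.00345% higher and 0% lower) and a median of 1.18 points, against 0.86 over all events. At an unadjusted p under 0.05 there were 287 higher and 65 lower (4.22% and 0.955%, against 3.79% and 1.48%). The interaction median moved with several libraries. It was 0.39 points without rescue replicate 1 of mEx3 (127 higher, 144 lower), 0.50 without knockdown replicate 1 of pEx3 (177 higher, 204 lower) and 0.48 without knockdown replicate 2 of mEx3. It was 1.79 without knockdown replicate 1 and 2.07 without rescue replicate 2 of mEx3, and 2.12 without knockdown replicate 2 of pEx3. The lowest adjusted p of the interaction was 0.765. Between the knockdown libraries of the 2 lines, 0 members were called (background 0%), the median difference was -0.11 points, and 162 were higher and 193 lower in pEx3 at an unadjusted p under 0.05 (2.38% and 2.83%, against 2.72% and 3.66%). Each of the 4 knockdown libraries turned or enlarged that median: it was -0.65 (78 higher, 360 lower) and 0.66 (160 and 133) without replicate 1 and 2 of mEx3, and 0.57 (454 and 89) and -1.06 (135 and 243) without replicate 1 and 2 of pEx3.

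Rescue against control holds the libraries that chose the members and is described only. Its median was -0.87 points in the mEx3 line and 0.45 points in the pEx3 line, with 0 members past the threshold in both (background 0.00345% lower for mEx3 and 0% otherwise). For mEx3 it was -1.31 and -0.22 without control replicate 1 and 2, and -0.13 and -1.73 without rescue replicate 1 and 2. For pEx3 it was -0.02 and 1.16 without control replicate 1 and 2, and 0.57 and 0.07 without rescue replicate 1 and 2.

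The authors' own list of differential events, made by a method not given in the sources used here, holds 24 of the 6808 members. As that method is not given, the share of all tested events that it calls is not known. The authors' deposited table calls 6 members for knockdown against control in the mEx3 line and 10 in the pEx3 line, all of them higher in knockdown. The limit of 20% on the control mean left little room for a large fall in these comparisons, so nothing is read from the direction. Over all lengths and kinds the authors' deposited table calls 807 and 968 events in these comparisons, of which 531 and 620 are introns and 79 in each line are introns of 1000 nt or more. Dvl1 and Fam113a were in both. For rescue against knockdown the authors' deposited table calls 4 members lower in the mEx3 line, namely 2010012O05Rik, Dvl1, Ndor1 and Sypl, out of 405 events, and 0 of 152 in the pEx3 line. For rescue against control the authors' deposited table calls 1 member higher in mEx3 (Dock4) and 4 in pEx3 (Cc2d1b, Dock4, Ep400 and Ltbp3), of 251 and 418 events. Between the lines the authors' deposited table calls 5 of 202 events in knockdown (Atxn2, Dock4, Ltbp3, Mvp and Numa1) and 4 of 246 in rescue (Cc2d1b, Cnot10, Iah1 and Sypl), and 0 of 215 in control. For rescue against knockdown in the mEx3 line, the authors' deposited table gives a difference of -17.22 points for Dvl1 and -21 points for Ndor1. Ndor1 was at 37.6% and 27.7% in knockdown and 6.02% and 16.1% in rescue of that line. Over both lines its rescue difference was -16.46 points (SE 5.05, adjusted p = 0.286 by limma), and its knockdown libraries, from 18.3% to 42.6%, met the rescue libraries at 18.9% and 19.4%.

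Where a long intron shares an exon with a short one, both can be compared in transcripts of 1 gene. A tested intron on the other side of a flanking exon was present for 3014 members, under 200 nt in length for 455 and of 1000 nt or more for 1679. Among these 3294 neighbours 13 were called higher on knockdown, where 1% of all events were. Of the 13, 12 were among the 470 neighbours under 200 nt, and the other was the Dock4 member of 2911 nt. The 14 members beside them differed from control by -3.05 to 13.3 points, with a median of 2.87 points and 0 at 15 points or more. The remaining members with a neighbour had a median of 0.36 points. Members beside any tested intron under 200 nt that was not called had a median of 1.29 points, and those beside a tested intron of 1000 nt or more that was not called 0.16 points.

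Rsbn1l gave the largest contrast. Its 88 nt intron (mm9 chr5:20402523-20402610) was retained at 17.1% and 25.2% in control, 49.8% and 72.9% in knockdown, and 31.6% and 32.3% in rescue of the mEx3 line. The adjoining member of 5386 nt (mm9 chr5:20402720-20408105) gave 1.85% and 0.75%, 2.96% and 4.26%, and 2.63% and 2.91% in the same libraries. In pEx3 cells the short intron went from 22.2% and 28.0% to 57.2% and 67.8%, and the long one from 1.45% and 1.12% to 3.23% and 6.19%. Over both lines the short intron rose by 38.8 points (adjusted p = 0.00462 by limma), while the long one was 2.87 points above control. The long one had control group means of 1.3% and 1.285% and knockdown group means of 3.61% and 4.71%. Its knockdown libraries thus helped it past the 2% mean over the 12 libraries, a choice that favoured a rise.

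Ercc2, which encodes the XPD helicase of transcription and nucleotide excision repair, showed the same arrangement. Its 80 nt intron rose by 34.3 points (adjusted p = 0.00329 by limma), from 7.46% to 19.1% in control to 39.6% to 60% in knockdown. The member of 1026 nt after the next exon was at 0% to 5.41% in control and 3.12% to 6.25% in knockdown. The 83 nt intron of Npat, a coactivator of histone genes, lies between 2 members of 3040 and 2862 nt. It rose by 28.7 points (adjusted p = 0.00465 by limma). The members on its sides were 2.43 and 1.19 points below control, with knockdown libraries between 0% and 2.40%. Their control group means were 3.195% and 4.06% (3040 nt) and 3.225% and 2.355% (2862 nt), and all their knockdown group means lay under 2%. Control libraries thus helped both past the 2% mean over the 12 libraries. That choice favoured a place below control, so nothing is read from these 2 differences. In Wrn, a RecQ helicase gene, the 75 nt intron rose by 15.7 points (adjusted p = 0.00841 by limma), and the adjoining intron of 11705 nt was 3.05 points below control.

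In the pairs whose ends are printed above, the short intron of Stx4a, a syntaxin gene, rose by 15.7 points and the long one was 1.49 points below control. The short intron of Fbxw9 rose by 17.5 points and the long one was 4.97 points above control, with values from 0% to 29.4% over the 12 libraries. In 1700019N12Rik both introns were higher: the short one by 18.7 points and the long one by 13.3 points, from 9.09% to 15.9% in control to 19.6% to 35.9% in knockdown. Of the 14 members this long intron came nearest to its neighbour. Gcdh, Map4k3, Ccdc22 and Mri1 lay between, with 9.35, 8.56, 5.04 and 2.87 points in the long and 30.1, 21.7, 27.7 and 25.5 points in the short intron.

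**Figure D5:**
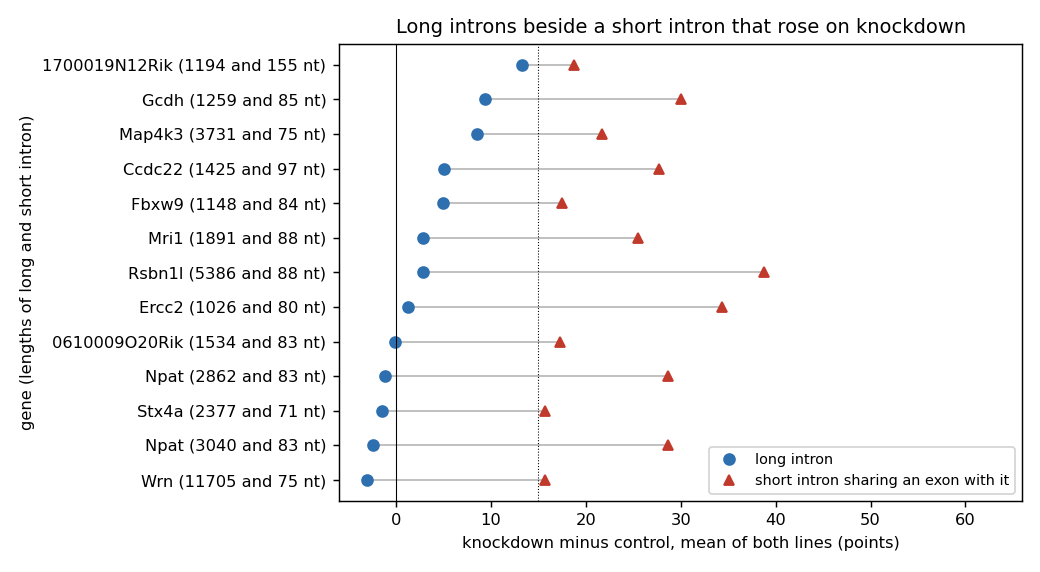
Knockdown minus control (points, mean of both lines) for 13 long introns (blue circles) and the short intron under 200 nt that shares an exon with each (red triangles). The short introns were picked because they passed the threshold of 15 points (dotted line) with an adjusted p under 0.05, and the long introns lie between -3.05 and 13.3 points.

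Over whole genes, 69 of the 135 genes with a called intron under 200 nt also held members. The share of all genes that held members was not counted, so nothing is read from that number. The 108 members in these genes had a median knockdown minus control difference of 1.31 points, against 0.31 points in the other members, and 1 of them reached 15 points. Their median rescue minus knockdown difference was -1.01 points, against -0.51 elsewhere.

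A long intron can also hold an alternative exon. Inside 168 members (2.47%) lay 185 tested cassette exons of the same gene, and 8 of them were called on knockdown, 3 included more and 5 less. That is 4.32%, against 2.02% of all 6738 cassette exons. Bptf holds 2 of the less included ones in 1 intron. It encodes a subunit of the NURF chromatin remodeller. Its 189 nt exon fell by 26.5 points (adjusted p = 0.0132 by limma) and its 186 nt exon by 15.4 points (adjusted p = 0.0225 by limma). Retention of that 13015 nt intron was 3.28 points below control. Exons of Cars2 and Nek1 were included less, and those of the cohesin gene Stag2, Asph and Stoml1 more. Around the 8 exons, retention of the introns differed from control by at most 5.89 points.

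Expression of the host genes was read from the authors' deposited table, in which 4087 host genes had a test. Of these 28 were higher and 49 lower on knockdown in the mEx3 line, or 1.88% against 2.26% of 21541 genes. For pEx3, 40 were higher and 92 lower, or 3.23% against 3.68%. For rescue against knockdown the authors' deposited table calls 0 host genes in each line, against 0.0232% and 0.00464% of all genes. The median log2 fold change of the host genes was between -0.07 and 0.02 in the 4 comparisons. In bulk RNA, fewer cells of a kind and less RNA per cell cannot be told apart.

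The spread between replicates was wider in host genes of low expression. Members were put into 4 classes of equal size by the mean RPKM of the host. In the lowest class (up to 11.8 RPKM) the 2 knockdown libraries of a line differed by a median of 2.60 and 2.89 points, and in the highest (32.7 RPKM or more) by 1.69 and 1.95 points. The median standard error of rescue against knockdown was 1.64 and 1.23 points in the same classes. The median knockdown minus control difference was 0.38, 0.25, 0.21 and 0.41 points from the lowest to the highest class.

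Gene lists by function gave no member at 15 points or more in either comparison. The 19 members in genes of 3′ splice site and branch point factors ran from -1.45 to 3.93 points in knockdown minus control (median -0.26). The 23 in other spliceosome, SR and hnRNP genes ran from -2.42 to 7.07 points (median 0.48), with Prpf40b, a U1 snRNP-associated factor, the highest. In its intron of 4542 nt rescue minus knockdown was -6.90 points (SE 2.83, adjusted p = 0.449 by limma). The 12 in genes known for regulated or detained introns had a median of 1.11 points, from -5.05 to 2.92 points. Here an intron of the kinase gene Clk2 (2967 nt) was 1.87 points and one of Ogt, the O-GlcNAc transferase (2327 nt), 1.39 points above control.

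The 28 members in neuronal genes had a median of 0.07 points, the 56 in DNA replication and repair genes 0.21 points, the 49 in chromatin regulators -0.03 points and the 3 in neuroblastoma genes 1.05 points. Over all 6808 members it was 0.32 points. Brca1 (4327 nt) was 4.04 points above control and Elavl4, a neuronal RNA-binding protein gene, 7.59 points. By the authors' deposited table, 0 of the 24 genes of 3′ splice site and branch point factors and 0 of the 39 of the spliceosome list were called on knockdown in either line, against 2.26% and 3.68% of all genes, and their median log2 fold changes lay between 0.22 and 0.24. Of the other lists, the authors' deposited table calls 2 neuronal genes in mEx3 and 4 in pEx3 of 41 tested, 2 and 4 neuroblastoma genes of 17, and 1 and 2 of the 31 genes known for regulated or detained introns. It calls 0 in the repair, chromatin and other cell type lists.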

How the data were processed

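PolyA RNA of 12 libraries (6 groups of 2) was sequenced with strand kept, per the labels' protocols. The authors' deposited table gives, per event, percent retention of introns and percent inclusion of exons in each library, with mm9 coordinates. Its event names are those of vast-tools, and neither its version nor its read minimum is given in the sources used here. The table has no read numbers, so the depth behind each percent is unknown, no counting interval can be given, and a value of 0% is only listed at 0. The authors' deposited expression table gives RPKM per group, log2 fold changes and FDR-adjusted p-values. Salmon 0.14.1, edgeR and mm9 are named in the submitters' processing notes, and these tools' roles are not stated there. No column of library values was left unused.

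limma 3.58.1 (R 4.3.3) was fitted to the percentages of all 28980 events with 12 values and a mean of 2% to 98%. Rows for the first listed site of an alternative 5′ or 3′ splice site event were left out beforehand. The fit had 6 group means, a trended and robust variance and Benjamini-Hochberg adjustment over all events. An event was called at an adjusted p under 0.05 and a difference of at least 15 points. Contrasts with controls are description, since control values chose the members. The mean over the 12 libraries, which also chose them, holds knockdown and rescue values as well. The introns, gene lists and named introns were chosen with earlier results of these data known. Introns named are the 15 lowest and 8 highest for rescue against knockdown among called members or, as 0 were called, among those whose libraries do not overlap, the 12 highest and 6 lowest for knockdown against control, those at each limit, and those leading in each gene list. Those named beside a short neighbour, around a called exon, in the authors' table or for their sequence were chosen after their values were seen. Host symbols were matched to 4089 genes in the expression table, 3702 by symbol and 387 by synonym. Some named items are not reported here.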

Additional observations from a re-analysis of the deposited data

Results flagged for a closer look

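The intron of 2048 nt in Nlgn2, which encodes the inhibitory synapse protein neuroligin 2, stood in opposite order in the 2 lines for rescue and knockdown. In the mEx3 line knockdown gave 13.1% and 12.8% and rescue 15.6% and 15.2%, and controls gave 12.4% and 18.6%. In the pEx3 line knockdown gave 22.2% and 23.9%, rescue 9.47% and 11.1% and controls 8.11% and 8.74%. Rescue minus knockdown was 2.40 points in the first and -12.79 points in the second, so the difference between the lines was -15.18 points. Both rescue libraries lay above both knockdown libraries in the mEx3 line and below them in the pEx3 line. The interaction had an adjusted p of 0.928 by limma and did not pass. Of all members, 48 had this order without overlap and 259 the reverse order. The share over all events was not counted, so nothing is read from these counts or from the order in this 1 intron. The Nlgn2 intron was looked at among the introns named from gene lists.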

How the results depend on the processing

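Each comparison was repeated under 10 other settings and without each of the 12 libraries. Those of the contrasts with controls were chosen after seeing the data. For rescue against knockdown as the mean of both lines, the count was 0 in all settings but 3, in which 1 member (Dvl1) was called: 1 with an untrended, non-robust variance, 1 with the replicate number as a block, and 0 to 1 when each library was left out. For rescue against knockdown in each line, for its difference between the lines, for knockdown between the lines and for rescue against control, 0 members were called throughout. The 5 members higher on knockdown became 14 at 10 points (10 higher and 4 lower), 3 at 20 points, 2 among members of 2000 nt or more, 3 among members with a control mean under 10%, 1 without the filter on the mean, and 1 to 12 when each library was left out. In the mEx3 line the count was 1 with the untrended variance and 0 to 6 when each library was left out. In the pEx3 line the count of 1 became 2 at 10 points, 0 at 2000 nt or more and 0 without the filter on the mean, and 0 to 8 when each library was left out. At an FDR under 0.01 the host genes called on knockdown in the authors' deposited table were 31 in place of 77 and 54 in place of 132. The causes were not tested.

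Same-numbered libraries of different groups had deviations that correlated at 0.04 to 0.31 over events, but there are only 2 numbers and the labels name no shared batch, so the numbers were not taken as a pairing. With the replicate block the count for knockdown against control was 8 for the mean of both lines, 1 in the mEx3 and 4 in the pEx3 line, and 1 for rescue against knockdown as the mean of both lines. Depth per intron is unknown and limits what small differences can show.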
